A study of Danio rerio with 6 samples.

Results

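Transducin and phosphodiesterase 6 (PDE6) carry the light signal from the visual pigment to the level of cGMP in the photoreceptor outer segment. Transducin is a heterotrimeric G protein of an alpha, a beta and a gamma subunit. An activated opsin makes its alpha subunit exchange GDP for GTP, and the alpha subunit then relieves the catalytic subunits of PDE6 from their inhibitory gamma subunits, so that cGMP is broken down and cation channels close. Rods and cones use separate genes for nearly every subunit. In vertebrates gnat1, gnb1 and gngt1 form rod transducin, and gnat2, gnb3 and gngt2 form cone transducin. PDE6A and PDE6B are the catalytic subunits of rod PDE6 and PDE6G its inhibitor, while PDE6C and PDE6H have these roles in cones.

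The genes described are 10 zebrafish subunits picked by symbol, namely gnat1, gnat2, gnb1b, gnb3b, gngt1, pde6a, pde6b, pde6c, pde6g and pde6h. Of these, 9 were measured among 14781 genes of the deposited table, and all 9 passed the filter that left 11335 genes for the test. The gene pde6b was not analysed here. RefSeq now lists pde6h as pde6ha and pde6g as pde6gb. For the results, gnat1, gnb1b, gngt1, pde6a and pde6g are called rod subunits and gnat2, gnb3b, pde6c and pde6h cone subunits.

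The study compared retinas of 3 fish homozygous for the stl888 allele of samd7 with those of 3 wild-type fish, all males aged 3 months that came from intercrosses of heterozygotes. The protein Samd7 is a SAM-domain partner of Polycomb complexes in photoreceptors. Both retinas of a fish made up 1 library, so replicates were separate animals. Values are normalised read counts, that is the reads of a gene after division by the size factor of its library. A log2 change is the mean log2(value + 1) of the mutants less that of wild type, with a standard error (SE). P values of single genes come from limma and were adjusted over all 11335 genes by the Benjamini-Hochberg method, and a gene is said to have risen or fallen only if this p was under 0.05.

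The libraries held between 20186266 and 29117026 reads in genes. The transcript of samd7 was at 2471 to 5121 in the mutants and 4196 to 5186 in wild type, so it did not check the genotype labels. For rods, 8 of 10 listed markers were measured, and their summed level ran between 432703 and 1551560 in the mutants and between 1495330 and 2418674 in wild type. For cones, 7 of 9 listed markers ran between 97428 and 200994 in the mutants and between 252913 and 585311 in wild type. Most of the rod sum was rho, at 410623 to 1490410 in the mutants and 1420939 to 2349076 in wild type. The cone marker arr3a alone was at 384 to 1437 in the mutants and 123364 to 239837 in wild type. The separation of the cone sum rested on arr3a, and without that gene the sums of the genotypes overlapped. Of the 7 cone markers 4 fell and none rose, beside 1.78% and 0.829% of all genes tested. The cone marker arr3b had a log2 change of 0.74 (limma adjusted p = 0.452). Of the 8 rod markers 1 fell and none rose, and of the 10 Müller glia markers 2 rose and none fell. No listed marker of the other cell types was called. Mutant replicate 1 stood apart, with rod markers at 432703 against 1265183 or more in the other mutants. The 10 Müller glia markers were at 319923 to 346439 in the mutants and 300586 to 305856 in wild type, the 7 measured ganglion cell markers at 16379 to 19321 and 7760 to 13640, and the 6 measured horizontal cell markers at 9274 to 12360 and 15025 to 18560. The summed markers of bipolar cells, amacrine cells, pigment epithelium, microglia, lens and red blood cells overlapped between genotypes. Those of pigment epithelium varied widely, from 5524 to 34673 in the mutants and from 10394 to 31044 in wild type. The part of these marker differences in the results on the subunits was not tested. In whole retina, fewer cells of a type and less RNA per cell cannot be told apart.

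All 9 measured subunits had a lower mean in the mutants than in wild type, and the cone alpha subunit gnat2 was the gene of this set that fell. The 9 log2 changes ran between -1.40 and -0.36, with a median of -0.97, beside a median of 0.01 over all genes tested. The cone subunits had a median of -1.27 and the rod subunits of -0.91. Of the 9 subunits 1 was lower at the threshold and none was higher, where 1.78% of all genes tested were lower and 0.829% higher, or 2.61% in either direction. At an unadjusted p under 0.05 all 4 cone subunits and none of the rod subunits were lower, where 11.6% of all genes tested were lower and 9.38% higher. The rod subunits pde6g (limma unadjusted p = 0.0527) and pde6a (0.0533) missed this cutoff narrowly. No library of one genotype overlapped the other in 5 of the 9 subunits, the 4 cone subunits and pde6g. The mutants were lower without overlap in 14.8% of all genes tested, and higher without overlap in 13.3%. This separation was counted on the size-factor normalised values. As shares of all reads in genes, gnat2 (0.493% to 0.602% in the mutants, 0.855% to 1.13% in wild type) and pde6h (1.48% to 1.74%, 2.05% to 4.49%) also did not overlap. For gnb3b, pde6c and pde6g the genotypes overlapped on that measure.

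**Figure D1:**
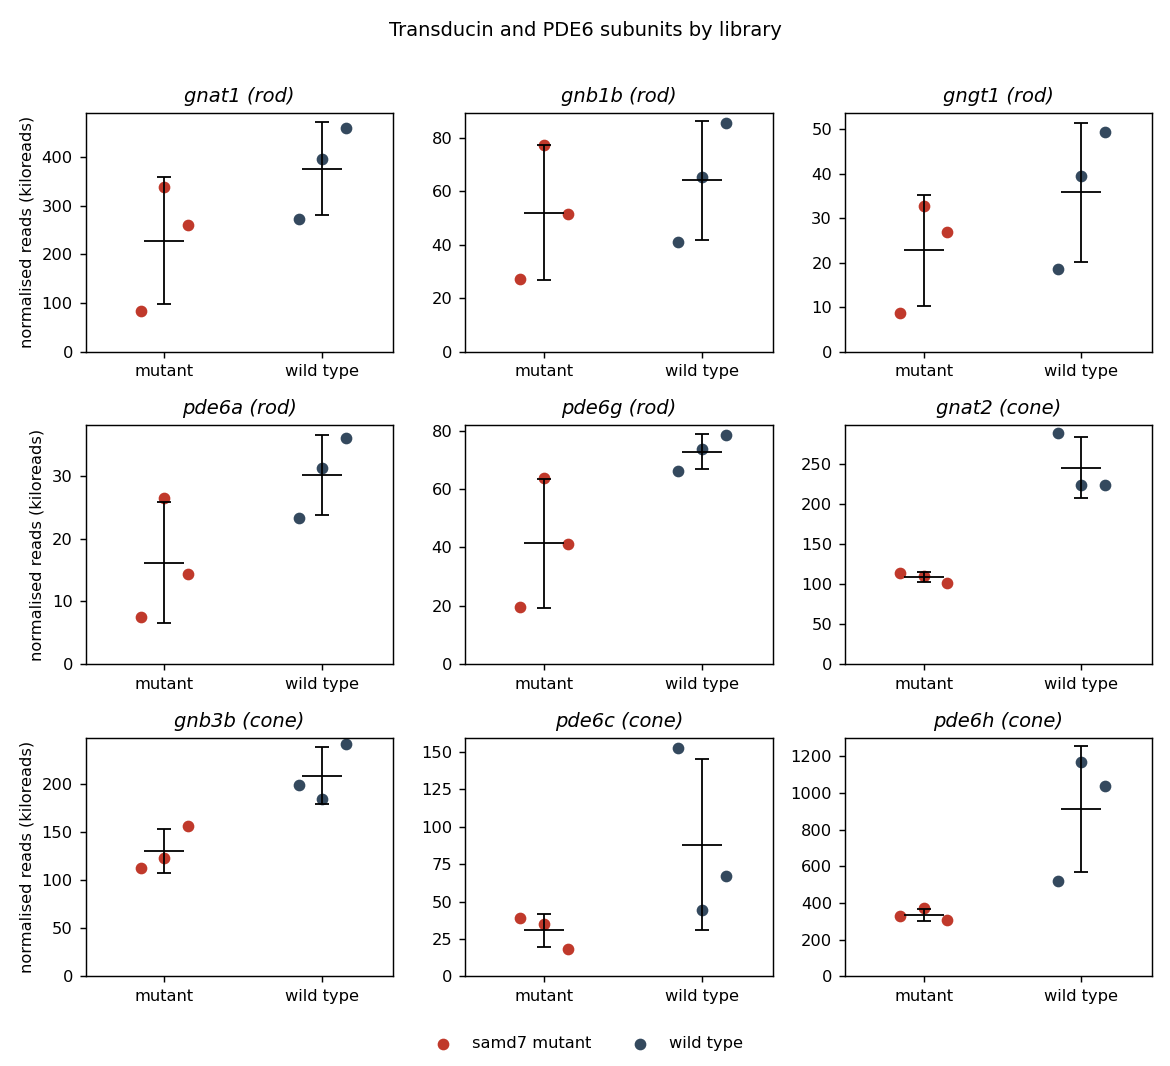
Normalised read count (axis in kiloreads) of each measured transducin and PDE6 subunit, with a point for each library, the 3 samd7 mutants on the left and the 3 wild-type fish on the right of each panel, and a bar and whiskers for the mean ± SD (n = 3). The mutants lie below wild type without overlap for gnat2, gnb3b, pde6c, pde6h and pde6g, and mutant replicate 1, the leftmost mutant point, is the lowest library of every rod subunit.

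The alpha subunit of cone transducin, gnat2, fell to 0.442 of wild type. Its values were 113526, 109925 and 101634 in the mutants and 288727, 223203 and 223949 in wild type. The mutants thus lay close together, with the highest library 1.12 times the lowest, and far from the nearest wild-type library. The means were 108361 ± 6098 in the mutants and 245293 ± 37617 in wild type (SD, n = 3 each), and the log2 change was -1.17 (SE 0.16, limma adjusted p = 0.0244). The call depended on single libraries. It was lost without mutant replicate 1 (adjusted p = 0.113), mutant replicate 3 (0.153), wild-type replicate 2 (0.0923) or wild-type replicate 3 (0.0587). Without these libraries, in the same order, limma called 21, 19, 11 and 52 genes lower over all genes tested, in place of 202. The log2 change of gnat2 stayed between -1.23 and -1.05 without any single library. The quasi-likelihood test of edgeR on the recovered reads called it as well (adjusted p = 0.0295), where 1.44% of all genes were lower and 0.812% higher by that test.

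The rod alpha subunit gnat1 did not pass the test. It was at 84384, 338717 and 259746 in the mutants, against 271667, 396530 and 458615 in wild type. Mutant replicate 1 was far below all other libraries, while mutant replicate 2 was above wild-type replicate 1, so the genotypes overlapped. Its log2 change was -0.91 (SE 0.53, limma adjusted p = 0.382). Without mutant replicate 1 the log2 change was -0.31 (adjusted p = 0.667).

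Of the beta subunits, the cone gene gnb3b was lower in each mutant but missed the threshold, and the rod gene gnb1b was the least changed of the set. The values of gnb3b were 112294, 122549 and 156381 in the mutants and 198865, 184738 and 241512 in wild type. Every mutant was below every wild-type fish, and the means differed by more than the SD of either genotype, at 130408 ± 23070 and 208372 ± 29557 (log2 change -0.68, SE 0.18, limma adjusted p = 0.102). The values of gnb1b were 27118, 77296 and 51648 in the mutants and 41184, 65190 and 85633 in wild type. These overlapped broadly (log2 change -0.36, SE 0.44, limma adjusted p = 0.686), and without mutant replicate 1 the log2 change of gnb1b was 0.04. Beta subunits are shared with other G proteins, and gnb1 genes are active outside rods, so the level in whole retina is not that of photoreceptors alone.

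The rod gamma subunit gngt1, the small lipid-anchored partner of the beta subunit, varied the most of the transducin genes within wild type. It was at 8676, 32698 and 26949 in the mutants and at 18678, 39416 and 49434 in wild type. The 2 genotypes overlapped (log2 change -0.75, SE 0.59, limma adjusted p = 0.518), and the highest wild-type library was 2.65 times the lowest. Without mutant replicate 1 its log2 change was -0.16 (adjusted p = 0.897).

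The catalytic subunits of PDE6 had lower means in the mutants for both cell types, and neither passed the test. The cone gene pde6c was at 39033, 35091 and 18072 in the mutants and at 152927, 44035 and 67099 in wild type. All mutants were below all wild-type fish, although mutant replicate 1 came within a short distance of wild-type replicate 2, and wild-type replicate 1 held 3.47 times as much as wild-type replicate 2. The mutant mean was 0.349 of wild type (log2 change -1.40, SE 0.51, limma adjusted p = 0.194). Without wild-type replicate 1 the log2 change was -0.90, and without wild-type replicate 2 it was -1.80. The rod gene pde6a was at 7600, 26635 and 14379 in the mutants and at 23400, 31305 and 36102 in wild type. Mutant replicate 2 lay above wild-type replicate 1 and the other mutants lay below all wild-type fish (log2 change -1.06, SE 0.45, limma adjusted p = 0.245).

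In the normalised values the inhibitory gamma subunits pde6h and pde6g of PDE6 were lower in every mutant library than in any wild-type library. For pde6g the gap was narrow, 63611 in mutant replicate 2 against 66313 in wild-type replicate 1, and it depended on the size factors. The cone gene pde6h was at 328488, 372620 and 304749 in the mutants and at 521790, 1171454 and 1040866 in wild type. The mutants were within 1.22 times of each other, and wild-type replicate 1 lay between them and the other wild-type fish. The means were 335286 ± 34442 in the mutants and 911370 ± 343646 in wild type, a ratio of 0.368 (log2 change -1.36, SE 0.32, limma adjusted p = 0.0767). Of the 6 libraries left out in turn, the gene passed only without wild-type replicate 1 (log2 change -1.72, limma adjusted p = 0.0148). The rod gene pde6g was at 19481, 63611 and 41104 in the mutants and at 66313, 73679 and 78341 in wild type. Wild-type fish agreed within 1.18 times, the smallest spread among the 9 subunits in that genotype, while the mutants spread over 3.27 times (log2 change -0.97, SE 0.41, limma adjusted p = 0.243).

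By DESeq2 on the recovered reads all 4 cone subunits were lower, where that tool called 6.65% of all genes lower and 4.14% higher, and no rod subunit was called. The adjusted p values were 9.73e-12 for gnat2, 9.62e-05 for pde6h, 0.00731 for gnb3b and 0.0160 for pde6c. The authors' deposited table holds adjusted p values of 1.94e-11, 9.39e-05, 0.00811 and 0.0157 for these genes, and calls 6.3% of its genes lower and 3.88% higher. For the rod subunits the authors' deposited table has adjusted p values between 0.170 and 0.748. Limma, edgeR and voom called gnat2 and no other subunit, and voom called 0.82% of all genes lower and 0.326% higher.

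**Figure D2:**
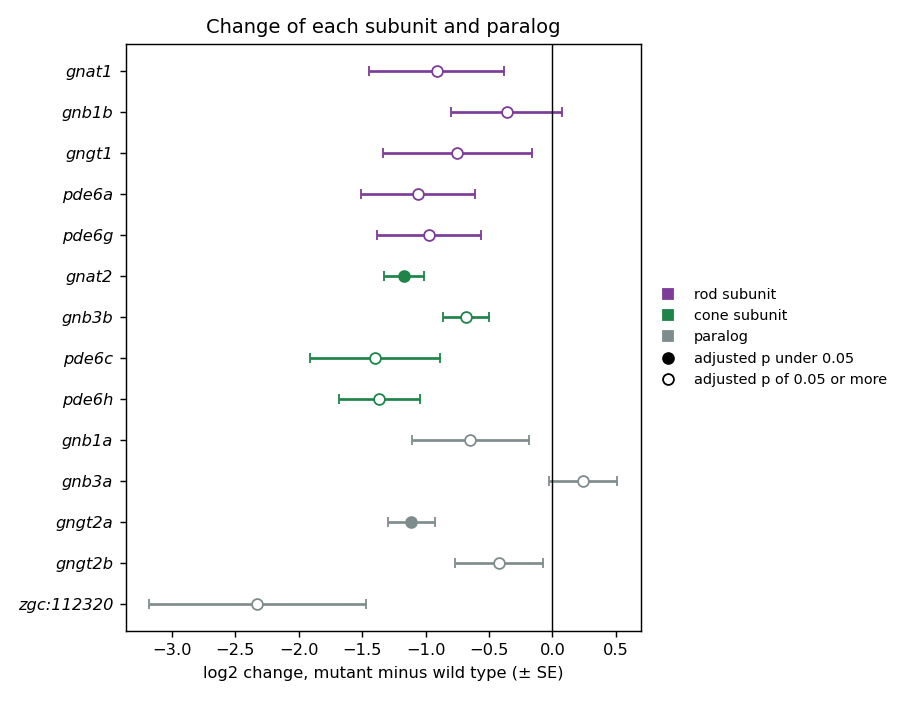
Log2 change of mutant over wild type with its SE for the 5 rod subunits, the 4 cone subunits and 5 tested paralogs, with filled points for an adjusted p under 0.05 in limma. Only gnat2 and the paralog gngt2a are filled, the SEs of the rod subunits are between 0.41 and 0.59, and zgc:112320 is the farthest to the left at -2.33.

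The 5 rod subunits moved together from library to library, and the cone subunits did not share that order. In the mutants each of the 5 rod subunits was lowest in replicate 1 and highest in replicate 2. In wild type each of the 5 was lowest in replicate 1 and highest in replicate 3. With every gene's log2 value centred on its own mean over the 6 libraries, the rod subunits averaged -1.41, 0.38 and -0.18 in the mutants, and -0.06, 0.51 and 0.76 in wild type. The cone subunits averaged -0.51, -0.48 and -0.74 in the mutants and 0.69, 0.42 and 0.62 in wild type. Within the mutants, the highest library was 2.85 to 4.01 times the lowest for the rod subunits and 1.12 to 2.16 times for the cone subunits. The rod opsin rho was at 410623, 1490410 and 1229502 in the mutants and 1420939, 1983177 and 2349076 in wild type. Within each genotype it had the same order of libraries as the rod subunits.

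**Figure D3:**
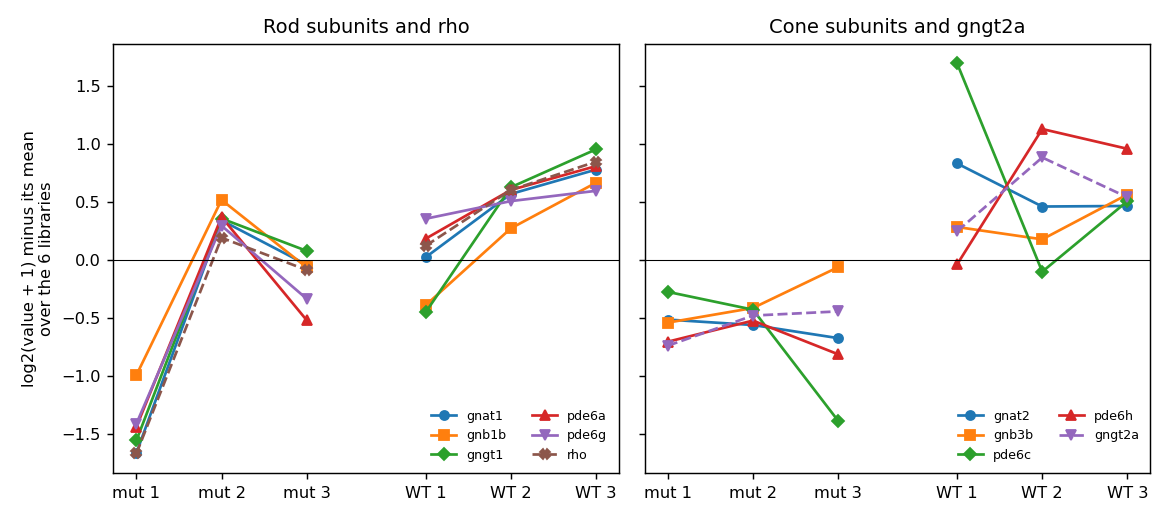
Log2(value + 1) of each gene minus its own mean over the 6 libraries, by library, for the rod subunits with rho (left panel) and the cone subunits with gngt2a (right panel). Lines join the libraries of a genotype only to follow a gene. The rod genes share a low mutant replicate 1, down to about -1.4 on average, while the cone genes lie below 0 in all 3 mutants.

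Together the 9 subunits took 4.71 ± 0.764% of the reads in the mutants and 7.83 ± 1.40% in wild type (SD, n = 3 each). The shares were 3.93%, 5.46% and 4.73% in the mutants and 6.21%, 8.54% and 8.72% in wild type, without overlap. The cone subunits took 3.15%, 2.96% and 2.82% in the mutants and 4.56%, 6.22% and 6.01% in wild type. The rod subunits took 0.781%, 2.49% and 1.91% in the mutants and 1.65%, 2.32% and 2.71% in wild type, which overlapped. These shares are of all reads in genes, and abundant genes such as opsins that differ between the libraries move them too.

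Ratios of subunits within a library do not depend on how libraries are scaled to each other, and they were used to compare the changes of rod and cone subunits. Of 13 ratios, none passed, and with 3 libraries against 3 the smallest p of the exact permutation test is 0.1. The cone-to-rod ratio of the alpha subunits, gnat2 over gnat1, was 1.345, 0.325 and 0.391 in the mutants and 1.06, 0.563 and 0.488 in wild type. Replicate 1 was the highest in both genotypes, and the genotypes overlapped (difference of the mean log2 ratio -0.26, exact two-sided permutation test, p = 0.7, adjusted p = 0.867 over the 13 ratios). The genotypes also overlapped for pde6c over pde6a (difference -0.34, exact permutation p = 0.5), pde6h over pde6g (-0.39, exact permutation p = 0.5) and gnb3b over gnb1b (-0.32, exact permutation p = 0.6). The difference turned positive for gnat2 over gnat1 without mutant replicate 2 (0.13) or wild-type replicate 1 (0.082), for pde6c over pde6a without mutant replicate 3 (0.014) or wild-type replicate 1 (0.34), and for gnb3b over gnb1b without mutant replicate 2 (0.067). With this overlap a larger change of cone than of rod subunits was not shown, and 3 libraries a genotype with this spread do not show equal change either.

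Ratios between subunits of the same cell type were compared in the same way. The ratio of gngt1 to gnat1 was 0.103, 0.0965 and 0.104 in the mutants and 0.0688, 0.0994 and 0.108 in wild type. The ratio of pde6g to pde6a was 2.56, 2.39 and 2.86 in the mutants and 2.83, 2.35 and 2.17 in wild type. Both overlapped between genotypes, with exact permutation p = 0.8 and p = 0.5. Of the rod ratios shown in the plot of ratios, gnb1b over gnat1 was apart between genotypes, at 0.321, 0.228 and 0.199 in the mutants and 0.152, 0.164 and 0.187 in wild type (difference of the mean log2 ratio 0.55, exact permutation p = 0.1, adjusted p = 0.433). In cones, pde6h over pde6c was 8.42, 10.6 and 16.9 in the mutants and 3.41, 26.6 and 15.5 in wild type, so wild-type fish alone spanned the range of the mutants (exact permutation p = 1). The ratio of gnb3b to gnat2 was 0.989, 1.11 and 1.54 in the mutants and 0.689, 0.828 and 1.08 in wild type (exact permutation p = 0.2).

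The alpha subunits were also set against their opsins. Rod gnat1 over rho was 0.206, 0.227 and 0.211 in the mutants and 0.191, 0.200 and 0.195 in wild type, so that it stayed within a narrow band while both genes varied over 3.63 times or more among the mutants. All mutants were above all wild-type fish (difference of the mean log2 ratio 0.13, exact permutation p = 0.1, adjusted p = 0.433). Cone gnat2 over the summed cone opsins was 0.124, 0.107 and 0.0808 in the mutants and 0.486, 0.213 and 0.166 in wild type. All mutants were below all wild-type fish here (difference of the mean log2 ratio -1.33, exact permutation p = 0.1, adjusted p = 0.433). Wild-type replicate 1 was far above the other wild-type fish in this ratio, and without it the difference was -0.88. The cone opsins moved in opposite directions, so their sum is not a common opsin level. The mean of opn1sw1 was 499547 in the mutants and 165581 in wild type, and that of opn1sw2 was 511834 and 269289. The opsins opn1lw1, opn1lw2, opn1mw1, opn1mw2, opn1mw3 and opn1mw4 had negative log2 changes.

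**Figure D4:**
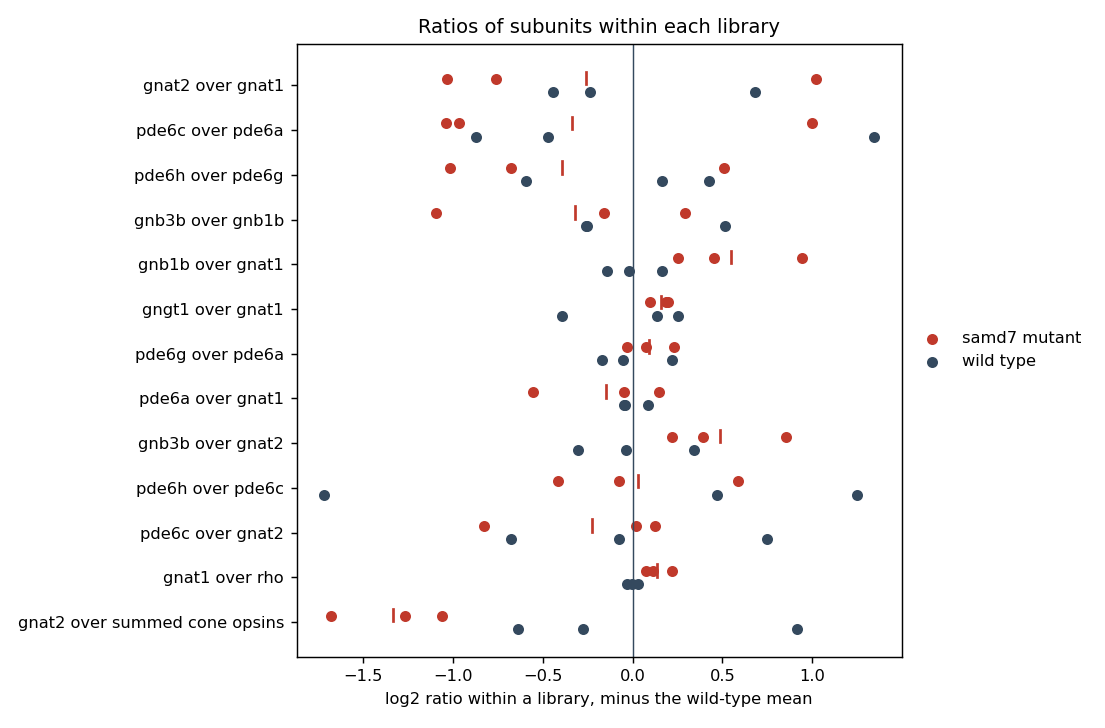
Log2 of 13 ratios of genes within a library, minus the wild-type mean of that ratio, with red points for the 3 mutants above and dark points for the 3 wild-type fish below in each row, and a red bar for the mutant mean. The genotypes separate in gnb1b over gnat1, gnat1 over rho and gnat2 over summed cone opsins, and overlap in the 4 ratios of a cone to a rod subunit.

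Among the 5 tested paralogs of these subunits the cone gamma subunit gngt2a fell with gnat2, and the others did not pass. Over all genes tested, limma called 1.78% lower and 0.829% higher. By DESeq2 1 paralog was lower and none higher, where that tool called 6.65% of all genes lower. The values of gngt2a were 22761, 27255 and 27944 in the mutants and 45120, 70153 and 55291 in wild type. All mutants were below all wild-type fish, at 0.457 of wild type (log2 change -1.11, SE 0.19, limma adjusted p = 0.0408). This call was lost without mutant replicate 1 (adjusted p = 0.162), mutant replicate 2 (0.0684), mutant replicate 3 (0.178), wild-type replicate 2 (0.115) or wild-type replicate 3 (0.0936). The second cone gamma gene gngt2b was at 45133, 42512 and 56744 in the mutants and at 87332, 36630 and 81837 in wild type. Wild-type replicate 2 was the lowest of all libraries there, so the genotypes overlapped (log2 change -0.42, limma adjusted p = 0.535).

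The paralogs gnb1a and gnb3a of the beta subunits did not pass the test. The rod-type gnb1a was at 26117, 80929 and 67005 in the mutants and at 59367, 82739 and 111080 in wild type (log2 change -0.65, limma adjusted p = 0.474). Within each genotype its libraries had the order of gnat1. The gene gnb3a was at 3198, 3529 and 4473 in the mutants and at 2093, 3547 and 4115 in wild type, and was the only tested paralog with a positive log2 change (0.24, limma adjusted p = 0.657). Copies such as gnb1a and gnb1b are similar in sequence, so the split of reads between them is uncertain. Summed, gnb1a and gnb1b were at 110038 ± 53022 in the mutants and 148398 ± 48083 in wild type and overlapped. The sum of gngt2a and gngt2b, at 74116 ± 9203 and 125455 ± 16338, did not overlap in the normalised values but did as a share of all reads in genes. Of all single genes tested, 14.8% were lower in the mutants without overlap.

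The paralog of the PDE6 inhibitors named zgc:112320, which RefSeq lists as pde6ga, had the widest spread among the mutants of all measured subunits and paralogs. It was at 4043, 42165 and 7596 in the mutants and at 87552, 46992 and 39655 in wild type. Mutant replicate 2 was inside the wild-type range and the other mutants far below it, so the highest mutant was 10.4 times the lowest (log2 change -2.33, SE 0.85, limma adjusted p = 0.194). Unlike pde6g, it was highest in wild-type replicate 1. Summed with pde6g, it was at 23524, 105775 and 48700 in the mutants and at 153866, 120671 and 117995 in wild type. All mutants were lower in these normalised values, where 14.8% of all single genes tested were lower without overlap. As shares of all reads in genes, the sums of the genotypes overlapped. No read was counted for zgc:73359, listed in RefSeq as pde6hb, in any library.

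Genes for proteins that bind or deactivate transducin and PDE6 were lower in part. Of 26 listed partners 19 were measured and 17 tested, of which 3 fell and none rose, with a median log2 change of -0.86 over the tested genes beside 0.01 over all genes. Limma called 1.78% of all genes tested lower and 0.829% higher. By DESeq2 8 of the 17 were lower, where that tool called 6.65% of all genes lower. The phosducin pdcb, which binds the beta and gamma subunits of transducin, fell to 26041 ± 1003 in the mutants, against 59073 ± 2845 in wild type (SD, n = 3 each; log2 change -1.18, SE 0.11, limma adjusted p = 0.00707). Its libraries were 24916, 26362 and 26844 in the mutants and 58082, 62281 and 56857 in wild type, close together within each genotype. The threshold was missed without mutant replicate 1 (adjusted p = 0.0506), mutant replicate 3 (0.0645) or wild-type replicate 2 (0.0651). The gene rgs9a, for the regulator that speeds up GTP hydrolysis by transducin, fell to 0.303 of wild type (1636 ± 357 in the mutants and 5408 ± 1734 in wild type; log2 change -1.70, limma adjusted p = 0.0388). The gene rp2, a GTPase-activating protein in the trafficking of lipidated proteins, was the other that fell (2766 ± 70.6 in the mutants and 4766 ± 702 in wild type; log2 change -0.77, limma adjusted p = 0.0388). The partners with the largest p were unc119.1 (log2 change -0.29, limma adjusted p = 0.450) and rgs11, a relative of rgs9a (0.13, adjusted p = 0.521). The calls of rgs9a and rp2 were lost without mutant replicate 1, 2 or 3 or wild-type replicate 2 (adjusted p up to 0.156 and 0.178), and that of rgs9a also without wild-type replicate 3 (0.0570).

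Some duplicated partners differed in the order of their libraries. These pairs, and the chaperones and carriers that follow, were picked after their values were seen. The second phosducin pdca was at 14384, 58667 and 26710 in the mutants and at 57785, 64292 and 62628 in wild type, lowest in mutant replicate 1 and highest in mutant replicate 2 as the rod subunits were (log2 change -1.12, SE 0.48, limma adjusted p = 0.247). The gene rgs9b was at 1675, 6403 and 2909 in the mutants and at 7395, 6173 and 6355 in wild type, again with mutant replicate 2 within the wild-type range (log2 change -1.07, SE 0.46, limma adjusted p = 0.248). Their copies pdcb and rgs9a, by contrast, were within 1.08 and 1.56 times among the mutants. The beta subunit gnb5b, which pairs with Rgs9, was at 10058, 10506 and 8822 in the mutants and at 26446, 16925 and 16359 in wild type, without overlap (log2 change -0.99, SE 0.20, limma adjusted p = 0.0549). Its paralog gnb5a had a log2 change of 0.33 (limma adjusted p = 0.321).

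Of the chaperones and carriers among the partners, ric8a, unc119b and pde6d had negative changes that missed the threshold, and ric8b, the sister gene of ric8a, had a positive log2 change of 0.25 (limma adjusted p = 0.396). For ric8a, a chaperone of G protein alpha subunits, the values were 11966, 14469 and 12039 in the mutants and 18640, 28910 and 28478 in wild type (log2 change -0.96, limma adjusted p = 0.0557). For unc119b, which carries acylated transducin alpha, they were 10187, 9466 and 7342 in the mutants and 32969, 19936 and 15092 in wild type (log2 change -1.27, limma adjusted p = 0.0775). For pde6d, which carries prenylated proteins such as the PDE6 catalytic subunits, they were 4741, 5568 and 4125 in the mutants and 11427, 8725 and 6480 in wild type (log2 change -0.86, limma adjusted p = 0.0938). In the normalised values of ric8a, unc119b and pde6d, picked after their values were seen, all mutants were below all wild-type fish. As a share of all reads in genes, pde6d overlapped between genotypes. The mutants were lower without overlap in 14.8% of all genes tested.

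The lists of other rod and cone genes also had negative medians. The rod list holds disc genes and transcription factors beside genes of the phototransduction cascade. Over all genes tested the median was 0.01, and limma called 1.78% lower and 0.829% higher. Of 22 genes listed as other rod genes 16 were tested, of which 2 fell, prph2a (log2 change -0.73, limma adjusted p = 0.0388) and the rod transcription factor nrl (-1.36, adjusted p = 0.0408), and the median was -1.03. In the mutants prph2a was at 30355, 34615 and 34171, without the far lower replicate 1 seen for rho. Whether its change was in rods was not tested. The disc gene prph2b (log2 change -0.51, limma adjusted p = 0.0938) and the arrestin saga (-1.28, adjusted p = 0.165) came next by p. The largest adjusted p were those of nr2e3 (log2 change 0.71, adjusted p = 0.471) and rhol (-0.74, 0.640). The log2 change was negative in 15 of the 16 tested rod genes, all but nr2e3. The call of prph2a was kept only without wild-type replicate 1, and that of nrl without wild-type replicate 1 or mutant replicate 2, among the 6 libraries left out in turn. Of 26 other cone genes 21 were tested, of which 9 fell and 1 rose, with a median of -1.69, which did not change with opn1mw1, at 0 in all mutants, set to a floor of 3 reads per library. Of the 9, 5 were the opsins opn1lw2, opn1mw1, opn1mw2, opn1mw3 and opn1mw4, and the opsin that rose was opn1sw1. The other 4 were arr3a, gc3, guca1d and slc24a2. The opsin opn1mw1 was at least 187-fold lower in the mutants against that floor. The cone exchanger gene slc24a2 fell to 6990 ± 609 in the mutants against 22577 ± 1552 in wild type (log2 change -1.69, limma adjusted p = 0.00324). The cone genes with the largest p were grk1b (adjusted p = 0.486) and guca1e (adjusted p = 0.972). The log2 change was negative in 16 of the 21 tested cone genes. Beside opn1sw1, it was positive without a call in opn1sw2, arr3b, grk7b and guca1e.

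The lists of G protein subunits and phosphodiesterases outside the photoreceptor cascade had medians near 0. Of 32 listed other heterotrimeric G protein subunits 23 were tested by limma and none was called, with 6 higher and none lower at an unadjusted p under 0.05, beside 9.38% higher and 11.6% lower over all genes tested. By DESeq2 1 was higher, where that tool called 4.14% of all genes higher, and by edgeR and voom none was. Their median log2 change was 0.15. The smallest p belonged to gnb2 (1317 ± 46.1 in the mutants and 965 ± 144 in wild type, log2 change 0.46, limma adjusted p = 0.109), followed by gnai2a (0.33, adjusted p = 0.138), gng13b, a gamma subunit of ON bipolar cells in mammals (6067 ± 283 in the mutants and 4507 ± 775 in wild type, log2 change 0.44, adjusted p = 0.142), and gng3 (0.33, adjusted p = 0.143). The largest p were those of gnb4b (adjusted p = 0.992) and gnao1b. The alpha subunit gnao1b, of the G protein used by ON bipolar cells in mammals, was at 18103 ± 851 in the mutants and 18279 ± 2943 in wild type (log2 change -0.003, limma adjusted p = 0.994). The alpha subunit gene gnaia was not on the list, is named after its values were seen, and rose. It was at 1004, 623 and 823 in the mutants and at 267, 239 and 194 in wild type, without overlap (log2 change 1.79, SE 0.21, limma adjusted p = 0.0167). The call of gnaia was lost without mutant replicate 1 (adjusted p = 0.0727), mutant replicate 3 (0.111) or wild-type replicate 2 (0.0820). Other phosphodiesterases were represented by 4 tested genes of 25 listed, pde5ab, pde7a, pde8a and pde10a, with log2 changes between -0.18 and 0.59 and limma adjusted p of 0.503 or more. None of these 4 was called by edgeR, DESeq2 or voom, and none had an unadjusted p under 0.05.

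**Figure D5:**
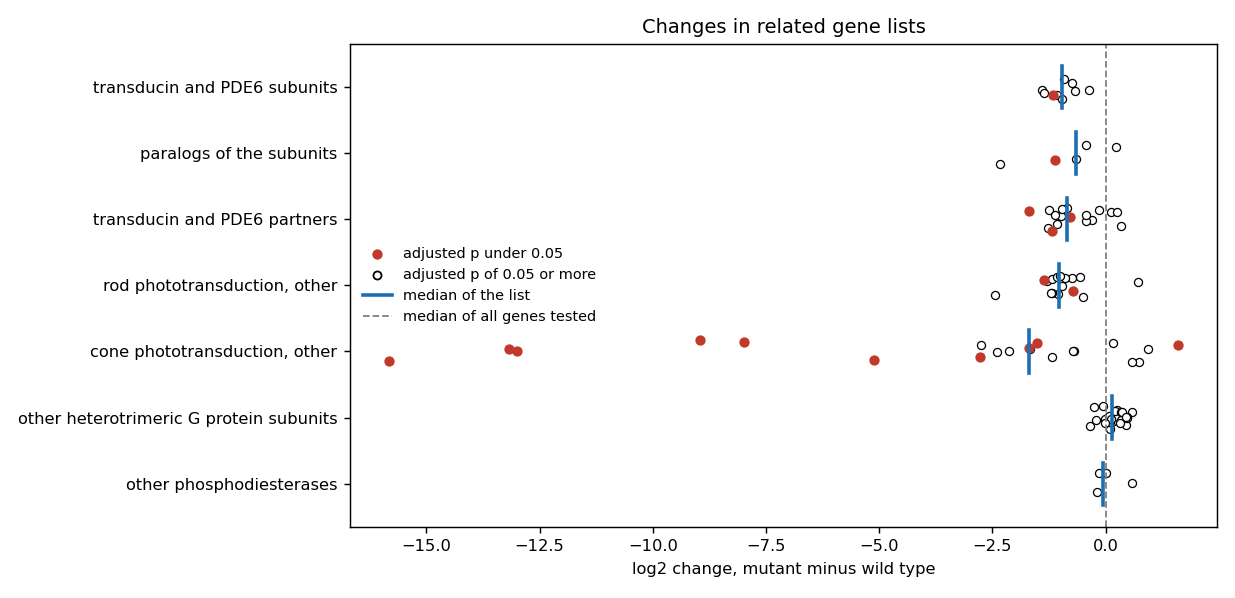
Log2 change of mutant over wild type for each tested gene of the subunits and of 6 related lists, with red points for an adjusted p under 0.05, a blue bar for the median of each list and a dashed line for the median of all genes tested. The medians of the photoreceptor lists lie between -1.69 and -0.65 and those of the other G protein subunits and phosphodiesterases near 0.

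The genes closest to gnat1 in their pattern over the 6 libraries included rho and a rod channel gene. Likeness was the root mean square difference of log2(value + 1) centred on each gene's mean, over 8801 tested genes with a mean of at least 100. The closest were the outer segment disc gene rom1b (0.0559), rho (0.0820), si:dkey-22i16.2 (0.111), which RefSeq lists as the rod channel gene cnga1a, rom1a (0.160) and the complexin cplx4c (0.166). The rod subunits gngt1, pde6g and pde6a were at ranks 10, 11 and 12, and gnb1b at rank 30. The cone subunits were at ranks between 331 and 8331.

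For gnat2 the closest genes held none of the listed phototransduction genes. Among them were si:ch211-232d19.4 (0.110), the mitochondrial kinase gene pink1 (0.133), a gene known by a clone name (0.136) and the scaffold gene mpp5b (0.137). These 4 fell, with log2 changes between -1.31 and -1.02. Likeness was taken over both genotypes, so a gene close to gnat2 has a similar log2 change by that choice. None of the cone subunits was close by rank, as gnb3b came at rank 445, pde6h at 1714 and pde6c at 2113. Ranks for gnat1 and gnat2 are not comparable. The distance of gnb3b from gnat2 was 0.362, near the 0.354 of gnb1b, at rank 30, from gnat1. The distances of pde6h and pde6c from gnat2 were 0.501 and 0.523, while gngt1, pde6g and pde6a were at 0.218 to 0.226 from gnat1. These likenesses rest on 6 libraries that share their depth and scaling between genes, and they say nothing of shared function.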

How the data were processed

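The data were RNA-seq libraries of adult zebrafish retina, 3 samd7 mutants and 3 wild types, grouped by the genotype in the labels. A SMARTer kit turned total RNA into cDNA, per the labels' protocols. The submitters' processing notes name the build danRer10 and the tools HTSeq 0.9.1 and STAR 2.7.2b, with Trim Galore 0.6.1, and also R 4.1.3 and DESeq2 1.34.0. Tool settings, strand mode and annotation are not stated there, so overlapping genes cannot be told apart and no positions are printed.

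The authors deposited signal values, which are reads of a gene after division by a library's size factor (0.863 to 1.18). Of the values above 0, 100% were whole multiples of a step per library within 0.01 reads, so reads were recovered. Log2 fold changes and adjusted p-values are also in the deposited table, per the file headers. Gene names are as in the table, with RefSeq synonyms where a listed name was not in it.

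Genes were tested on log2(value + 1) by limma 3.58.1 (R 4.3.3) with a variance trend and robust moderation, for genes at 10 or more in at least 3 libraries. The threshold was an adjusted p of 0.05. Subunits were read from the fit over all genes. Within-library ratios were tested by exact permutation (two-sided), with Benjamini-Hochberg adjustment over 13 ratios, and pde6b was left out of those that were to hold it. The alternatives were TMM, upper-quartile and library-total scaling, 2 filters, pseudocounts of 0.1 and 10, limma without trend, edgeR 4.0.16, DESeq2 1.42.0, voom, a replicate block, thresholds of 0.01 and 0.1, and each library left out in turn. The tests on recovered reads called 163 genes lower and 92 higher with edgeR. The fit was also run on simulated counts in which genes varied independently. That run does not test the fit for genes that move together between libraries, as the rod subunits did. The subunits, lists and tests were chosen with earlier results of these data known. Genes were named by rule: all subunits and paralogs, up to 4 genes with the smallest and 2 with the largest p of a list, and the 5 genes most like gnat1 and gnat2, of which 1 is not reported here. Other genes were named after their values were seen and are described as partners or examples. PCR copies were not marked, so depth bounds counting error only.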

Additional observations from a re-analysis of the deposited data

How the results depend on the processing

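Limma called 202 genes lower and 94 higher. With library totals as the scaling these were 141 and 1987, and the median log2 change of all genes was 0.36 in place of 0.01. The 9 subunits still had negative changes there, between -1.05 and -0.01, with a median of -0.62. Genes called lower were 129 with upper-quartile scaling, 22 without the variance trend, 753 with DESeq2, 93 with voom, 19 at a threshold of 0.01 and 519 at 0.1. Genes called higher were 8 without the trend, 469 with DESeq2, 37 with voom, 4 at 0.01 and 317 at 0.1. With each library left out in turn, genes called lower were 11 to 236 and genes called higher 4 to 130. Of the 9 subunits, in place of 1, 0 were lower by limma without the trend or at 0.01, 4 with DESeq2, 2 at 0.1 and 0 to 2 with a library left out. No subunit was higher under any of these alternatives. The log2 change of gnb1b ran from -0.71 to 0.045 with a library left out, and turned positive without mutant replicate 1. The causes of these differences were not tested.

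Over the 18 other fits gnat2 was called in 13, pde6h in 2, gnb3b and pde6c in 1 each and no rod subunit in any. Of the 13 ratios, 7 changed sign with a library left out. Their differences of the mean log2 ratio ran from -0.90 to 0.13 for gnat2 over gnat1, -1.001 to 0.34 for pde6c over pde6a, -0.63 to 0.067 for gnb3b over gnb1b, -0.036 to 0.29 for gngt1 over gnat1, -0.30 to 0.052 for pde6a over gnat1, -0.83 to 0.66 for pde6h over pde6c and -0.57 to 0.15 for pde6c over gnat2. Among other genes named as called, values under the alternatives were read only for gngt2a, rgs9a, rp2, prph2a, nrl, pdcb, slc24a2 and gnaia. Limma without the trend ended the calls of gngt2a (adjusted p = 0.0766), rgs9a (0.0766), rp2 (0.0815), prph2a (0.0700) and nrl (0.0766). It also ended that of gnat2 (0.0531), and of gnaia, which rose (0.0538). Scaling by library totals ended those of rp2 (0.0750) and prph2a (0.0599), and voom that of nrl (0.0528).

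The replicate numbers were tried as a block, although each fish is its own animal. Deviations of same-numbered libraries from their genotype means correlated across genes at 0.186, -0.141 and 0.235. For mutant replicates 1 and 3 the same-numbered wild-type library was the best match, whereas mutant replicate 2 correlated best with wild-type replicate 1 (0.125). These correlations do not decide whether the numbers pair the samples. The replicate block gave 208 genes lower and 81 higher, and 1 subunit lower, gnat2 (adjusted p = 0.0280). For the ratios the block allowed no p under 0.25, and gnat2 over gnat1 kept its difference of -0.26.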
